A study of Arabidopsis thaliana with 4 samples.

Results

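The genes of nuclear auxin signalling were examined in Arabidopsis thaliana seedlings that carry the atino80-5 allele and in wild type seedlings. Members were taken by locus identifier from a list of 49 genes: 29 Aux/IAA genes (IAA1 to IAA20 and IAA26 to IAA34), 15 ARF genes (ARF1 to ARF11 and ARF16 to ARF19) and 5 receptor genes (TIR1, AFB1, AFB2, AFB3 and AFB5). Values were available for 48 of them among 23174 genes in all, and IAA15 (AT1G80390) is not analysed here. FPKM is the number of fragments of a gene scaled for its length and for sequencing depth. Of the 48, 39 averaged 1 FPKM or more and were tested, and the other 9, all Aux/IAA genes, were below that minimum.

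Auxin is perceived by F-box proteins of the TIR1/AFB family, which belong to SCF ubiquitin ligases. Auxin brings the receptor and an Aux/IAA protein together, the Aux/IAA repressor is ubiquitinated and degraded, and the ARF transcription factors that it held back are released. Many Aux/IAA genes are themselves induced by auxin, so the repressors feed back on their own pathway.

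Libraries were made from whole 14-day-old seedlings, kept on MS agar at 22 °C in long days with 16 h of light. The atino80-5 group had 2 libraries, from seedlings labelled with a mutant allele of INO80, the ATPase of a chromatin-remodelling complex. The wild type group also had 2 libraries, grown in the same way, and no treatment is labelled for either group. PolyA RNA was sequenced from stranded libraries, and the labels do not say whether replicates were separate cultures, so a p-value measures only how these libraries vary, and that variation may be technical.

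The deposited values corresponded to 13068214 and 14746250 reads in the atino80-5 libraries and to 13846046 and 18406709 reads in the wild type libraries. The replicates correlated across genes at r = 0.9732 for atino80-5 and r = 0.9896 for wild type, against 0.9334 to 0.9679 between genotypes. The first atino80-5 library stood further from wild type (r = 0.9334 and 0.9388) than the second (0.9635 and 0.9679). INO80 itself (AT3G57300) stood at 2.72 and 3.13 FPKM in atino80-5 and at 4.28 and 4.54 FPKM in wild type, and the difference missed the threshold (limma log2 difference -0.46, SE 0.15, adjusted p 0.117). Marker genes of 4 tissues were read beside the auxin genes. Of all tested genes, 2.99% were called higher and 2.42% lower, so 0 calls in a short list says little. Seed marker genes summed to 40.1 and 45.6 FPKM in atino80-5 and to 0.744 and 0.619 FPKM in wild type, and 3 of 3 tested members were called higher. In wild type, SESA5 and ABI3 of that list were at 0. Root markers summed to 546 and 650 FPKM in atino80-5 and to 367 and 415 FPKM in wild type, most of it from PYK10, with 0 of 6 called. Leaf markers summed to 25868 and 40026 FPKM in atino80-5 and to 37748 and 28213 FPKM in wild type, most of it from RBCS1A, with 0 of 4 called. Of the 4, 3 overlapped, and LHCB1.1 was higher with 4203 and 2523 FPKM in atino80-5 against 1848 and 2165 FPKM in wild type (limma adjusted p 0.223). In the authors' deposited table PYK10 (adjusted p 0.0196) and LHCB1.1 (adjusted p 0.0386) were higher, where 5.85% of all genes were. Shoot meristem markers were at 1.86 and 4.38 FPKM in atino80-5 and 5.34 and 3.67 FPKM in wild type, with 0 of 2 called. CLV3 of that list had 1 read in each atino80-5 library and 0 in wild type. The part of these markers in the results below was not tested.

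The Aux/IAA proteins carry a short degron, the stretch that docks into the receptor, whose core is glycine, tryptophan and a pair of prolines. The codons of this core (GGN, TGG, CCN and CCN, read in frame) were found in 23 of 29 Aux/IAA genes and not in 6: IAA20, IAA30, IAA31, IAA32, IAA33 and IAA34. The following 27-base stretches of coding sequence, from the RefSeq annotation of TAIR10.1, show the core in capitals for the repressor that was called and for 4 relatives that the results below turn on.
IAA3 (chr1:1129019-1129045, minus strand): attgttGGATGGCCACCAgttagatct
IAA4 (chr5:17550743-17550769, plus strand): attgttGGATGGCCACCAgttagatct
IAA8 (chr2:9637728-9637754, plus strand): gttgttGGTTGGCCTCCAatcagatca
IAA17 (chr1:1136941-1136967, plus strand): gttgtgGGATGGCCACCGgtgagatca
IAA28 (chr5:9033815-9033841, plus strand): gtggtgGGATGGCCGCCGgtgagatca
IAA3 and IAA4 had the same 27 bases, and the core differed among the others only at the last base of a codon.

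The small RNAs miR167 and miR393 cleave transcripts of some ARF and receptor genes, and their sites are shown for members whose values are given below. The mature sequences have bases 2 to 8, the seed, in capitals.
miR167a (chr3:8108090-8108110, plus strand): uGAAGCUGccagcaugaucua
miR393a (chr2:16652111-16652132, plus strand): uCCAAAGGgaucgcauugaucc
In the sites, all within coding sequence, capitals mark the bases in Watson-Crick pairs with the small RNA, and lower case the unpaired bases and, in TIR1 and AFB1, 1 base in a G:U pair.
ARF6, miR167a site (chr1:10686478-10686498, minus strand): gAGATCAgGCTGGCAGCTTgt
ARF8, miR167a site (chr5:14633841-14633861, plus strand): TAGATCAgGCTGGCAGCTTgt
TIR1, miR393a site (chr3:23273727-23273748, minus strand): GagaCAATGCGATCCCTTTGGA
AFB1, miR393a site (chr4:1405341-1405362, minus strand): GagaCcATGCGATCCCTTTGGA
AFB2, miR393a site (chr3:9870237-9870258, plus strand): GaAaCAATGCGATCCCTTTGGA
AFB3, miR393a site (chr1:4369085-4369106, minus strand): GaAaCAATGCGATCCCTTTGGA
AFB2 and AFB3 had the same site. No match to miR393a within a penalty of 4.5 (1 for each unpaired base and 0.5 for each G:U pair) was found in AFB5. Sites for miR160a were found in ARF10, ARF16 and ARF17.

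Most Aux/IAA repressors were at higher levels in atino80-5 than in wild type, but only IAA3 passed the test. Of 19 tested, 1 was called higher and 0 lower by limma on log2(FPKM + 1), at a Benjamini-Hochberg adjusted p below 0.05 over all 17642 genes tested. Over all genes 5.41% were called, 2.99% higher and 2.42% lower. The difference was positive for 15 of the 19, among them IAA11 at 0.00. Of all 17642 tested genes, 9335 were positive and 8307 negative. IAA16 and IAA11 turned negative under total-read scaling, and IAA16 under quantile normalisation. The Aux/IAA median was 0.46 with a range of -0.58 to 1.17, beside a median of 0.03 over all genes. The family median was 0.30 without atino80-5 replicate 1, 0.34 under quantile normalisation, 0.32 under total-read scaling, and 0.19 with no filter, where the low genes enter it. All atino80-5 libraries lay above all wild type libraries for 11 of the 19, against 33.4% of all genes, and below them for 3, against 28.8% of all genes. The FPKM of the 28 measured Aux/IAA genes summed to 653 and 517 in atino80-5 and to 427 and 415 in wild type. The FPKM of all genes also summed to more in atino80-5, to 663788 and 599828, against 538233 and 510968 in wild type. In bulk tissue, fewer cells of a type and less RNA per cell cannot be told apart. In the authors' deposited table, 6 of 23 Aux/IAA genes with an adjusted p were higher at 0.05 and 0 lower, where 5.85% of all genes were higher and 3.65% lower.

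**Figure D1:**
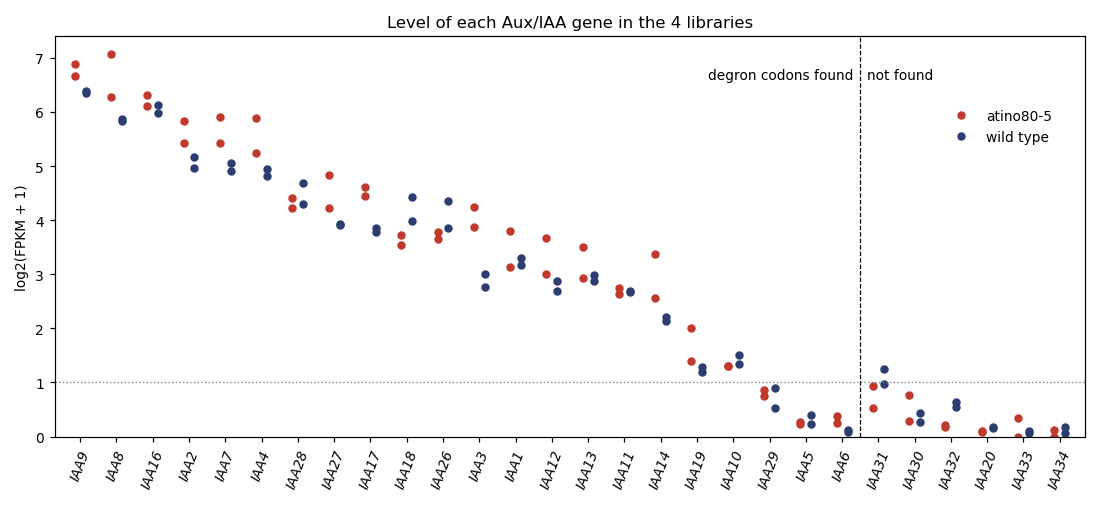
Level of each Aux/IAA gene, as log2(FPKM + 1), in the 2 atino80-5 and the 2 wild type libraries, each point 1 library, with a dotted line at 1 FPKM and a dashed line between genes with and without the degron codons. IAA9, IAA8 and IAA16 lie at the top, and the 6 genes without the codons all average below the dotted line.

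IAA3 (AT1G04240), also known as SHY2, is a repressor known for its role in root meristem size and in light-grown seedlings. It is annotated at chr1:1128149-1129689 on the minus strand. IAA3 stood at 17.9 and 13.7 FPKM in atino80-5, against 7.05 and 5.81 FPKM in wild type, from 285 and 267 reads and from 143 and 159 reads. Both atino80-5 libraries were above both wild type libraries. The means were 15.8 ± 2.93 FPKM in atino80-5 and 6.43 ± 0.875 FPKM in wild type (SD, n = 2 each), a ratio of 2.46, and the log2 difference was 1.17 (SE 0.19, limma adjusted p 0.0224). The call held in 13 of 14 alternative settings and was lost without wild type replicate 2 (limma adjusted p 0.0921). The gene overlaps AT1G04230 on the other strand, which stood at 3.26 and 3.12 FPKM in atino80-5 and at 3.14 and 3.83 FPKM in wild type, and the sources used here do not say whether the counting used the strand.

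The close relatives of IAA3 also had positive differences without a call. The group of IAA1, IAA2, IAA3 and IAA4, typical early auxin-induced repressors, had 4 of 4 positive differences with a median of 0.63. IAA4 (AT5G43700) stood at 58.6 and 36.8 FPKM in atino80-5 and at 27 and 29.7 FPKM in wild type (log2 difference 0.69, limma adjusted p 0.142). IAA2 (AT3G23030) stood at 42.1 and 56.3 FPKM in atino80-5 and at 34.8 and 30.2 FPKM in wild type (log2 difference 0.57, limma adjusted p 0.144). For both, the atino80-5 libraries lay above wild type without overlap, as they did for 33.4% of all genes. IAA1 (AT4G14560) did overlap, with 7.74 and 12.9 FPKM in atino80-5 and 7.96 and 8.85 FPKM in wild type, and its difference of 0.23 turned negative without atino80-5 replicate 2.

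The group of IAA7, IAA14, IAA16 and IAA17 holds repressors whose stabilised forms give strong auxin resistance in mutants, and it also had 4 of 4 positive differences (IAA16 turned negative under quantile normalisation and total-read scaling), with a median of 0.70. IAA17 (AXR3, AT1G04250) came nearest to the threshold, with 23.5 and 20.9 FPKM in atino80-5 and 12.7 and 13.5 FPKM in wild type. Its libraries did not overlap between genotypes, and the log2 difference was 0.71 (SE 0.15, limma adjusted p 0.055). IAA7 (AXR2, AT3G23050) stood at 59.2 and 41.8 FPKM in atino80-5 and at 32.3 and 29.1 FPKM in wild type (log2 difference 0.68, limma adjusted p 0.116). IAA14 (SLR, AT4G14550), a repressor of lateral root formation, stood at 9.31 and 4.88 FPKM in atino80-5 and at 3.64 and 3.42 FPKM in wild type (log2 difference 0.78, limma adjusted p 0.136). The genotypes did not overlap for IAA7 or IAA14, and the first atino80-5 library was the highest of the 4 for each. IAA16 (AT3G04730) overlapped, with 78.7 and 68.4 FPKM in atino80-5 and 62.2 and 68.7 FPKM in wild type, and its difference was 0.16.

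IAA8, IAA9 and IAA27, long repressors of 1 subgroup, had 3 of 3 positive differences with a median of 0.61. IAA8 (AT2G22670) had the largest gap between the atino80-5 libraries of the 3, with 133 and 77.0 FPKM in atino80-5 and 56.0 and 57.6 FPKM in wild type (log2 difference 0.82, SE 0.28, limma adjusted p 0.131). IAA9 (AT5G65670), whose tomato counterpart regulates leaf and fruit development, stood at 117 and 100 FPKM in atino80-5 and at 80.1 and 82.6 FPKM in wild type (log2 difference 0.41, limma adjusted p 0.202). IAA27 (AT4G29080) stood at 27.4 and 17.8 FPKM in atino80-5 and at 14.3 and 14.0 FPKM in wild type. In all 3 genes both atino80-5 libraries were the higher ones, as they were for 33.4% of all genes.

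A smaller set of repressors had lower values in atino80-5. IAA18, IAA26 and IAA28 had 3 of 3 negative differences with a median of -0.39, and 0 of them were called. IAA18 (AT1G51950), named from a mutant with altered embryo and root patterning, stood at 10.6 and 12.2 FPKM in atino80-5 and at 20.5 and 14.9 FPKM in wild type (log2 difference -0.58, SE 0.20, limma adjusted p 0.133). IAA26 (AT3G16500), closest to IAA18 with 82.2% identity over aligned coding bases, stood at 11.6 and 12.7 FPKM in atino80-5 and at 19.5 and 13.4 FPKM in wild type. IAA28 (AT5G25890), a repressor of lateral root founding, overlapped, with 20.3 and 17.6 FPKM in atino80-5 and 24.7 and 18.6 FPKM in wild type, and its difference of -0.17 was near 0 without wild type replicate 1. The wild type libraries differed from each other by more than the atino80-5 libraries did for IAA18, IAA26 and IAA28. Without wild type replicate 1 the difference was -0.36 for IAA18 and -0.13 for IAA26.

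The remaining tested repressors were low to moderate. IAA12 (BDL, AT1G04550), the repressor of ARF5 in the embryo, stood at 11.8 and 6.99 FPKM in atino80-5 and at 6.35 and 5.42 FPKM in wild type (log2 difference 0.56, limma adjusted p 0.201), and its relative IAA13 at 10.3 and 6.62 FPKM in atino80-5 and 6.38 and 6.94 FPKM in wild type. IAA19 (MSG2, AT3G15540), which acts in bending growth of the hypocotyl, stood at 3.00 and 1.65 FPKM in atino80-5 and at 1.30 and 1.45 FPKM in wild type. The atino80-5 libraries lay above wild type for IAA12 and IAA19, as for 33.4% of all genes, and overlapped it for IAA13. The size of several differences depended on which atino80-5 library was left out. Without replicate 1 they were 0.38 for IAA14, 0.43 for IAA8, 0.37 for IAA4, 0.31 for IAA27, 0.22 for IAA12 and 0.16 for IAA19. Without replicate 2 they were 1.19 for IAA14, 1.21 for IAA8, 1.02 for IAA4, 0.91 for IAA27, 0.89 for IAA12 and 0.75 for IAA19. Such a fit takes the lone atino80-5 library to vary like wild type, so calls of these genes in it are not given. IAA10 and IAA11 differed by -0.12 and 0.00 in log2(FPKM + 1).

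The level order of the family put IAA9 first (mean of all libraries 95.1 FPKM), then IAA8 (80.9) and IAA16 (69.5). The same 3 genes led in the same order per kilobase of annotated exon. IAA9 and IAA8 overlapped in the atino80-5 libraries and were apart in wild type, so their order in atino80-5 does not hold beyond the spread. All 19 tested Aux/IAA genes carried the degron codons, and all 6 genes without them averaged below 1 FPKM. The FPKM of those 6 summed to 2.18 and 0.878 in atino80-5 and to 2.19 and 2.28 in wild type. IAA31 was the highest of them, with 19 reads in all in atino80-5 and 47 in wild type. The other 3 genes below the minimum, IAA5, IAA6 and IAA29, do carry the codons, and IAA29 had the most reads of them, 27 in atino80-5 and 33 in wild type. Differences at such counts were not tested.

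**Figure D2:**
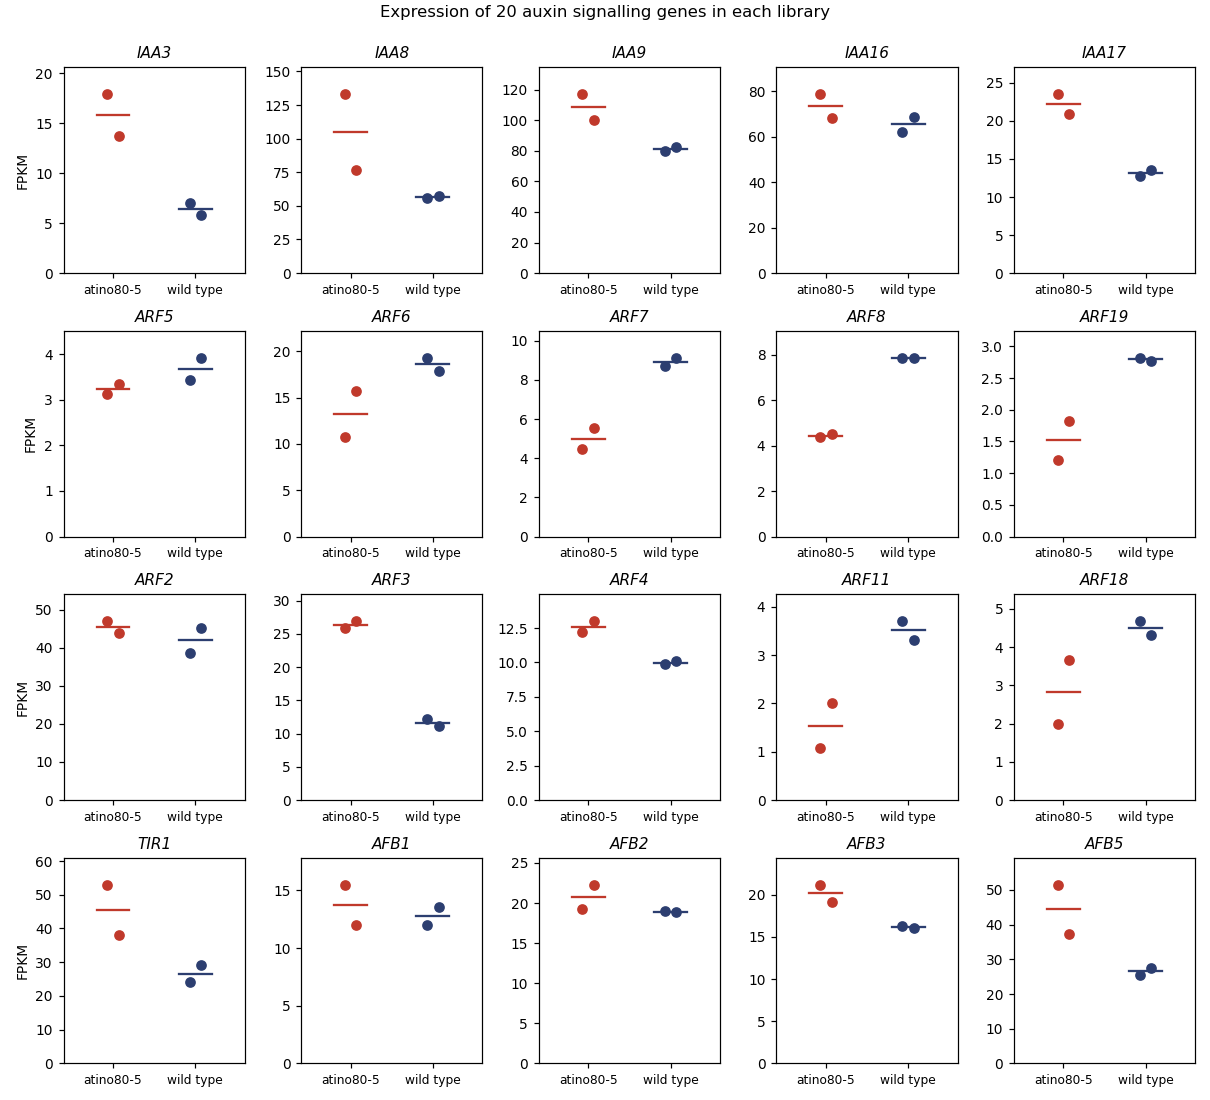
FPKM in each library, on a linear axis from 0, for the members that the results turn on, with atino80-5 left of wild type and a bar for the mean. IAA3 and ARF3 have both atino80-5 libraries above wild type (17.9 and 13.7 against 7.05 and 5.81 FPKM for IAA3), and ARF8 has both below.

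Among the ARF transcription factors, ARF3 rose and ARF8 fell. Of 15 tested, 1 was called higher and 1 lower, 5 differences were positive (ARF2 turned negative under quantile normalisation and total-read scaling) and 10 negative, and the median was -0.14 with a range of -0.85 to 1.12. Over all genes 2.99% were called higher and 2.42% lower, with 9335 positive and 8307 negative differences. The family median was -0.02 without atino80-5 replicate 1, -0.30 without atino80-5 replicate 2 and -0.32 under total-read scaling. The atino80-5 libraries lay above wild type for 4, against 33.4% of all genes, and below it for 7, against 28.8%, and the rest overlapped. The FPKM of the family summed to 144 and 157 in atino80-5 and to 146 and 149 in wild type, so the sum differed by less than the spread between libraries. In the authors' deposited table, 1 ARF gene was higher and 3 were lower at an adjusted p below 0.05, where 5.85% of all genes were higher and 3.65% lower.

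ARF3 (AT2G33860), also known as ETTIN, is a factor without the domain that binds Aux/IAA proteins, known for flower patterning and for the leaf underside, and it is a target of the trans-acting small RNAs from TAS3. It is annotated at chr2:14325206-14328978 on the minus strand. ARF3 stood at 25.9 and 26.9 FPKM in atino80-5, against 12.2 and 11.1 FPKM in wild type. All atino80-5 values were above the wild type values, and the libraries of each genotype lay close together. The means were 26.4 ± 0.712 FPKM in atino80-5 and 11.7 ± 0.712 FPKM in wild type (SD, n = 2 each), a ratio of 2.26, and the log2 difference was 1.12 (SE 0.15, limma adjusted p 0.0142). The call held in 12 of 14 settings and was lost without wild type replicate 1 (limma adjusted p 0.0688) and without wild type replicate 2 (0.0985). ARF4 (AT5G60450), the other TAS3 target of leaf polarity, stood at 12.2 and 13 FPKM in atino80-5 and at 9.89 and 10.1 FPKM in wild type (log2 difference 0.31, limma adjusted p 0.221). The TAS3 precursor (AT3G17185), looked up after the ARF3 values were seen, overlapped between genotypes with 18.8 and 10.2 FPKM in atino80-5 and 13.1 and 8.58 FPKM in wild type (limma adjusted p 0.481).

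The 5 factors known as transcriptional activators, ARF5, ARF6, ARF7, ARF8 and ARF19, were all lower in the atino80-5 libraries than in the wild type libraries, and 1 of the 5, ARF8, was called. Over all genes 28.8% lay below wild type in this way and 2.42% were called lower. Their median difference was -0.61, and their FPKM summed to 23.9 and 30.9 in atino80-5 and to 42.1 and 41.6 in wild type. ARF8 (AT5G37020), a factor of flower maturation and hypocotyl growth that is cleaved at the miR167 site shown above, is annotated at chr5:14629453-14634454 on the plus strand. ARF8 stood at 4.36 and 4.49 FPKM in atino80-5, against 7.83 and 7.86 FPKM in wild type. Both atino80-5 libraries were lower, with means of 4.42 ± 0.0931 FPKM in atino80-5 and 7.85 ± 0.0232 FPKM in wild type (SD, n = 2 each). The ratio was 0.564 and the log2 difference -0.71 (SE 0.14, limma adjusted p 0.041). The call held in 11 of 14 settings and was lost with no filter on low genes (limma adjusted p 0.0642), without wild type replicate 1 (0.304) and without wild type replicate 2 (0.26).

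ARF6 (AT1G30330), which acts with ARF8 and has the same kind of miR167 site, stood at 10.7 and 15.7 FPKM in atino80-5 and at 19.3 and 17.9 FPKM in wild type (log2 difference -0.48, limma adjusted p 0.194). ARF7 (NPH4, AT5G20730), an activator of tropic growth and lateral roots, stood at 4.45 and 5.53 FPKM in atino80-5 and at 8.72 and 9.13 FPKM in wild type (log2 difference -0.73, SE 0.16, limma adjusted p 0.054). It overlaps AT5G20720 on the other strand, which had 327 and 247 FPKM in atino80-5 and 145 and 154 FPKM in wild type (log2 difference 0.92, limma adjusted p 0.0668). ARF19 (AT1G19220), its partner with 74.4% identity over aligned coding bases, stood at 1.21 and 1.82 FPKM in atino80-5 and at 2.82 and 2.77 FPKM in wild type (log2 difference -0.61, limma adjusted p 0.0977). ARF5 (MONOPTEROS, AT1G19850), the factor of embryo axis and vein formation, differed by less, with 3.12 and 3.34 FPKM in atino80-5 and 3.44 and 3.92 FPKM in wild type. Of the miR167 precursor genes, looked up after the ARF8 values were seen, MIR167d (AT1G31173) stood at 2.03 and 2.27 FPKM in atino80-5 and at 5.70 and 4.72 FPKM in wild type (log2 difference -0.98, limma adjusted p 0.0224) and was lower in both atino80-5 libraries. The other 2 precursors looked up overlapped and had positive differences without a call, from few reads. MIR167a had 3.41 and 1.05 FPKM in atino80-5 and 0.893 and 1.08 FPKM in wild type (log2 difference 0.60, limma adjusted p 0.301). These came from 24 and 9 reads and from 8 and 13 reads. MIR167b had 16 and 6.17 FPKM in atino80-5 and 2.22 and 11 FPKM in wild type (log2 difference 0.83, limma adjusted p 0.435). Its reads were 17 and 8 in atino80-5 and 3 and 20 in wild type, so the direction of either precursor is uncertain. Mature small RNAs are not measured in polyA libraries.

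The factors known as repressors, ARF1, ARF2, ARF3, ARF4, ARF9, ARF11 and ARF18, had a median of -0.09, with ARF3 the single call. ARF2 (AT5G62000), a regulator of organ size and ageing and the highest ARF gene, overlapped with 47.0 and 43.9 FPKM in atino80-5 and 38.6 and 45.3 FPKM in wild type. ARF11 (AT2G46530) had the most negative difference of the tested members (-0.58 without atino80-5 replicate 1, where ARF8 at -0.69 was lower), with 1.07 and 2.01 FPKM in atino80-5 and 3.70 and 3.32 FPKM in wild type (log2 difference -0.85, SE 0.21, limma adjusted p 0.0739). ARF18 (AT3G61830), its closest relative with 81.3% identity over aligned coding bases, stood at 1.98 and 3.66 FPKM in atino80-5 and at 4.68 and 4.33 FPKM in wild type (log2 difference -0.56, limma adjusted p 0.182). For both of them the atino80-5 libraries lay below wild type, as they did for 28.8% of all genes. In both genes the atino80-5 libraries differed from each other by more than the wild type libraries did. Without atino80-5 replicate 1 the difference was -0.24 for ARF18 and -0.23 for ARF6, and without replicate 2 it was -0.89 for ARF18 and -0.74 for ARF6. ARF1 and ARF9 overlapped.

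The targets of miR160, ARF10, ARF16 and ARF17, which act in root cap and seed and leaf development, had 0 calls and a median of 0.25. ARF10 (AT2G28350) stood at 5.61 and 4.79 FPKM in atino80-5 and at 3.92 and 4.26 FPKM in wild type, and ARF16 at 8.49 and 6.38 FPKM in atino80-5 and 6.22 and 5.90 FPKM in wild type. Both were higher in both atino80-5 libraries, as were 33.4% of all genes, and ARF17 overlapped. By FPKM, ARF2 (mean 43.7), ARF3 (19) and ARF6 (15.9) led the family, but per kilobase of annotated exon the order was ARF2, ARF1 and ARF3. The length inferred to lie behind the FPKM of ARF1 was 1.97 times its annotated exon length.

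**Figure D3:**
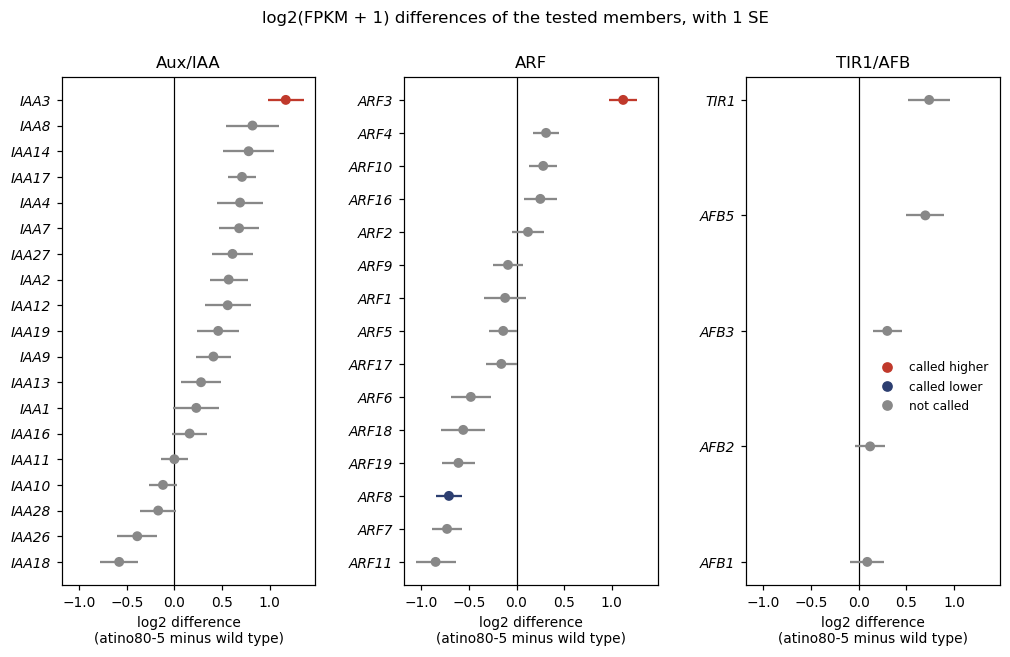
Difference in log2(FPKM + 1), atino80-5 minus wild type, for the 39 tested members by family, with bars of 1 SE. IAA3 (1.17) and ARF3 (1.12) are called higher, ARF8 (-0.71) is called lower, and the other 36 are not called.

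All 5 receptor genes had positive differences, as did 9335 of all 17642 tested genes, and 0 receptor genes were called. AFB1 and AFB2 turned negative under total-read scaling, and AFB2 under quantile normalisation. The receptor median was 0.30 with a range of 0.09 to 0.74, and 2 of the 5 had an unadjusted limma p below 0.05, where 27% of all genes had. The atino80-5 libraries lay above wild type for 4 of the 5, against 33.4% of all genes. The median was 0.17 under quantile normalisation and 0.09 under total-read scaling. The receptor FPKM summed to 160 and 129 in atino80-5 and to 97 and 105 in wild type. TIR1 (AT3G62980), the founding auxin receptor, stood at 53.0 and 38.2 FPKM in atino80-5, against 24.1 and 29.2 FPKM in wild type. AFB5 (AT5G49980), the receptor known for the response to picolinate auxins, stood at 51.5 and 37.2 FPKM in atino80-5, against 25.6 and 27.4 FPKM in wild type. For both, the atino80-5 libraries were above wild type but differed from each other by more than the wild type libraries did. The log2 difference was 0.74 (SE 0.22, limma adjusted p 0.103) for TIR1 and 0.70 (SE 0.20, limma adjusted p 0.1) for AFB5. In the authors' deposited table, both were higher, with log2 fold changes of 0.77 for TIR1 (adjusted p 0.017) and 0.74 for AFB5 (adjusted p 0.0201).

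AFB3 (AT1G12820), known from the root response to nitrate, stood at 21.2 and 19.1 FPKM in atino80-5 and at 16.3 and 16.1 FPKM in wild type (log2 difference 0.30, limma adjusted p 0.255). AFB2 (AT3G26810) had a difference of 0.12, with 19.2 and 22.3 FPKM in atino80-5 and 19 and 18.9 FPKM in wild type, and AFB1 (AT4G03190), known for rapid root responses, overlapped with 15.5 and 12.0 FPKM in atino80-5 and 12.0 and 13.6 FPKM in wild type. AFB2 and AFB3 share their miR393 site and 82.3% of aligned coding bases. AFB5 is the receptor gene in which no site was found. A part of miR393 in the receptor differences was not tested. AFB1 turned negative under total-read scaling (-0.12) and AFB2 under that setting (-0.09) and quantile normalisation (-0.03). TIR1 and AFB5 were close in mean level (36.1 and 35.4 FPKM), and AFB2 (19.9), AFB3 (18.2) and AFB1 (13.3) followed. Per kilobase of annotated exon AFB3 came before AFB2, and the rest of the order was the same.

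In the authors' deposited table the calls went further than in the limma test. Of 43 members with an adjusted p there, 9 were higher and 3 lower at 0.05, where 9.5% of all genes were called in either direction. It listed IAA3 at a log2 fold change of 1.30 (adjusted p 0.000262), ARF3 at 1.18 (2.09e-06) and ARF8 at -0.83 (0.0101) in the authors' deposited table. The authors' deposited table also called IAA8 at 0.89 (adjusted p 0.0114), IAA17 at 0.76 (0.0137) IAA14 at 1.00 (0.0411), IAA7 at 0.72 (0.0296) and IAA4 at 0.75 (0.0463) higher, and ARF7 at -0.84 (0.00743) and ARF11 at -1.18 (0.0143) lower.

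The 300 bases upstream of the annotated start are shown for the 3 called members, from the RefSeq annotation of TAIR10.1. The auxin response elements TGTCTC and TGTCGG were searched on both strands, and capitals mark GAGACA, the reverse complement of TGTCTC.
IAA3 (chr1:1129690-1129989, minus strand): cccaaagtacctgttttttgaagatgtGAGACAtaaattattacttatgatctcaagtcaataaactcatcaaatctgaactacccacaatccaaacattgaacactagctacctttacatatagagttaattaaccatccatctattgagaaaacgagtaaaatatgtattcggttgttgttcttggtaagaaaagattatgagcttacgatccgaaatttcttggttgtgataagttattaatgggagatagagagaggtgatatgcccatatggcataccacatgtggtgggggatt
ARF3 (chr2:14328979-14329278, minus strand): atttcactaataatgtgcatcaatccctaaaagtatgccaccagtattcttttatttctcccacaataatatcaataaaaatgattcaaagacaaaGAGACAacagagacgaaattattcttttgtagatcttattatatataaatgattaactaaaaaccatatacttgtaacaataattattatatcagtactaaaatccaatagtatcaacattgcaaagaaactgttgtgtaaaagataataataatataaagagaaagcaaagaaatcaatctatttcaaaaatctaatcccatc
ARF8 (chr5:14629153-14629452, plus strand): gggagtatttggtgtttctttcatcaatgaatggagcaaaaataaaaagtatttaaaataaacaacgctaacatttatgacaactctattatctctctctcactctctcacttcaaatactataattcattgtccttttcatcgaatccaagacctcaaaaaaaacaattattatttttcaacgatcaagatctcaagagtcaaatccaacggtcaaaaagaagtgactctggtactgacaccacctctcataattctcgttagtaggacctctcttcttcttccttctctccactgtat
The match stood 273 bases before the start in IAA3 and 204 bases before it in ARF3, and neither element was found in this window of ARF8. TGTCTC was found upstream of 11 of 28 Aux/IAA genes (39.3%), 2 of 15 ARF genes (13.3%) and 1 of 5 receptor genes, and upstream of 12.9% of 22127 protein-coding genes with values. TGTCGG was found upstream of 6 of 28 Aux/IAA genes (21.4%) and 2 of 15 ARF genes, and upstream of 5.32% of all such genes. A match is a description of these letters and not a shown binding site.

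Genes of the auxin pathway outside the 3 families were read from 6 lists, of which 56 of 58 genes had values and 43 were tested. Of the 43, 1 was called higher, where 2.99% of all genes were, and 2 lower, where 2.42% were, a share near that of all genes. The median difference was -0.03. GH3.5, an enzyme that joins auxin to amino acids and so lowers free auxin, was the gene called higher. It stood at 27.2 and 30.4 FPKM in atino80-5, against 7.90 and 7.14 FPKM in wild type. Both atino80-5 libraries were above both wild type libraries, with means of 28.8 ± 2.27 FPKM in atino80-5 and 7.52 ± 0.534 FPKM in wild type (SD, n = 2 each), a ratio of 3.83 and a log2 difference of 1.81 (SE 0.15, limma adjusted p 0.00462). It was called in 14 of 14 settings (limma adjusted p 4.79e-05 to 0.0113).

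Of 9 tested early-response genes, SAUR20 and SAUR21, members of a family of small auxin-induced growth proteins, were called lower, where 2.42% of all genes were. The differences of the 9 were mixed, with 4 positive and 5 negative. The atino80-5 libraries lay above wild type for 3, against 33.4% of all genes, and below it for 4, against 28.8%. Among the 3 was SAUR19, with 3.87 and 1.52 FPKM in atino80-5 and 1.32 and 1.08 FPKM in wild type. SAUR20 stood at 1.04 and 3.26 FPKM in atino80-5 and at 11.1 and 10.5 FPKM in wild type (log2 difference -2.00, SE 0.33, limma adjusted p 0.0252). These values came from 6 and 23 reads in atino80-5 and from 82 and 104 reads in wild type. The authors' deposited table had SAUR20 lower (adjusted p 0.000661) and did not call SAUR21 (adjusted p 0.181). SAUR21 stood at 5.26 and 5.29 FPKM in atino80-5 and at 9.87 and 9.89 FPKM in wild type (log2 difference -0.79, SE 0.14, limma adjusted p 0.0299), and its call was lost under voom (0.0735), without wild type replicate 1 (0.23) and without wild type replicate 2 (0.202). The coding sequences are near-identical to neighbours (92.7% over aligned bases between SAUR20 and SAUR24, 95.9% between SAUR21 and SAUR19), so reads may be shared and these values are uncertain.

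The lists for synthesis (4 tested), transport (14), co-repressors (5) and SCF subunits (6) had 0 calls by limma, with medians of 0.17, -0.14, -0.03 and 0.13. TAA1, which makes the auxin precursor indole-3-pyruvate, stood at 8.66 and 6.41 FPKM in atino80-5 and at 4.69 and 6 FPKM in wild type, and its relative TAR2 at 4.23 and 6.75 FPKM in atino80-5 and 5.86 and 5.22 FPKM in wild type. TAR2 overlapped between genotypes and TAA1 did not. Of the 14 transport genes 11 had negative differences, where 8307 of all 17642 tested genes had. Among the 11 was the influx carrier AUX1, with 20.1 and 22.9 FPKM in atino80-5 and 27.6 and 28.2 FPKM in wild type (limma adjusted p 0.198). The efflux carrier PIN7 stood at 29 and 32.8 FPKM in atino80-5 and at 34.3 and 40.5 FPKM in wild type. Both carriers were lower in both atino80-5 libraries, as were 28.8% of all genes. TPL, the co-repressor that Aux/IAA proteins recruit, overlapped with 16.1 and 19.8 FPKM in atino80-5 and 17.7 and 18.9 FPKM in wild type, as did its relative TPR1 with 8.79 and 10.5 FPKM in atino80-5 and 8.93 and 9.70 FPKM in wild type. ASK1, the SCF subunit that binds the F-box of TIR1, stood at 209 and 144 FPKM in atino80-5 and at 148 and 130 FPKM in wild type, and overlapped. ASK2 did not overlap, with 70.4 and 70 FPKM in atino80-5 and 50.6 and 58.1 FPKM in wild type.

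**Figure D4:**
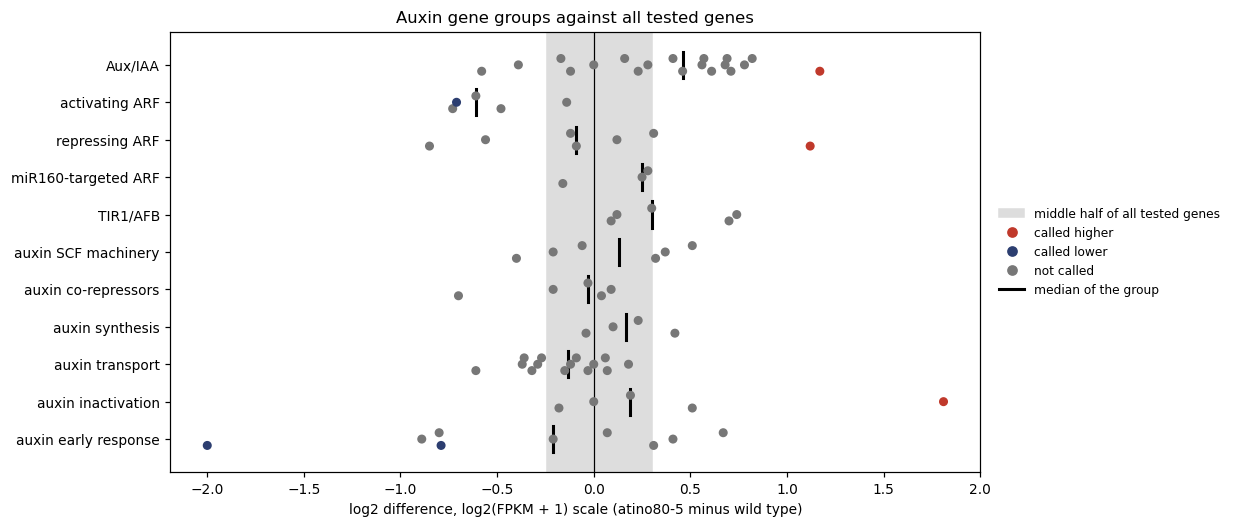
Difference in log2(FPKM + 1), atino80-5 minus wild type, of each tested gene by auxin gene group, with the median of each group and the quartiles of all tested genes (-0.24 and 0.30). The Aux/IAA median of 0.46 and the receptor median of 0.30 lie above the all-gene median of 0.03. The ARF genes are drawn as activating, repressing and miR160-targeted factors, with medians of -0.61, -0.09 and 0.25.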

How the data were processed

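PolyA RNA of whole seedlings was measured in 2 atino80-5 and 2 wild type libraries, grouped by the labels. Per the submitters' processing notes, the genome was TAIR10 and the tools included HISAT2, featureCounts and DESeq2, besides FastQC, cutadapt, SAMtools and deepTools. Which annotation was counted, whether strand was used and which genes were filtered is, in the sources used here, not given. The authors deposited FPKM values per library, and a table of their own test with a p-value and adjusted p-value per gene, a test score, a log2 fold change and a mean normalised signal. Size factors are not given there and were inferred, with the smallest nonzero value of each library taken as a single read. With these factors and the mean normalised signal, the deposited FPKM values gave back whole reads for 92696 of 92696 values (100%, tolerance 0.01). The length behind the FPKM values was inferred from the ratio of the mean normalised signal to the mean FPKM. Its scale was set by taking the most frequent ratio to the annotated gene length as equality. This inferred length had a median ratio of 1.19 to the annotated exon length. Levels of different genes are therefore affected, while the ratio of a gene's FPKM between libraries is not.

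The 17642 of 23174 genes that averaged 1 FPKM or more were tested by limma 3.58.1 (R 4.3.3, trend on) using log2(FPKM + 1), a scale that understates changes of low genes, and p-values were adjusted by the Benjamini-Hochberg method. A gene was called at an adjusted p below 0.05. With 2 libraries against 2, an exact permutation test of a single gene cannot give a two-sided p below 0.33, so none is given. The 14 alternatives were pseudocounts of 0.1 and 5, no filter, a minimum of 5 FPKM, quantile normalisation, total-read scaling, limma without trend, robust limma, voom on the recovered reads, a replicate block, and leaving out each of the 4 libraries. Sequences were read from RefSeq TAIR10.1, and the deposited tables hold no coordinates. Of the 49 members, 15 overlap another annotated gene. The members, the 6 other auxin lists and the 4 marker lists were chosen with earlier results of these data known. Any member could be named; given in full were called members, the receptors and the 3 highest members by mean FPKM of the other families. Of each other auxin list, called genes were named or, with none called, the 2 highest by mean FPKM. Genes looked up after their values were seen are marked so.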

Additional observations from a re-analysis of the deposited data

How the results depend on the processing

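Of 538 results of the 39 tested members under an alternative, 482 kept their direction and side of the threshold. The count of all genes called was 955, with 572 at a minimum of 5 FPKM, 1617 under total-read scaling (484 higher and 1133 lower, against 528 and 427) and 443 to 6896 without 1 library. Total-read scaling moved the median of all genes to -0.16. Aux/IAA calls numbered 2 with voom and 0 to 12 without 1 library. ARF calls numbered 1 with no filter, 5 under total-read scaling, 4 with voom and 0 to 9 without 1 library. Receptor calls numbered 0 to 2 without 1 library. Other auxin genes had 7 calls under total-read scaling and 2 to 15 without 1 library. The highest of each range was without atino80-5 replicate 2, where the lone mutant library is assumed to vary like wild type; INO80 ranged from -0.54 to -0.39 and was called there (limma adjusted p 0.0247). Differences turned sign under total-read scaling for IAA11 (-0.18), IAA16 (-0.05), ARF2 (-0.10), AFB1 (-0.12), AFB2 (-0.09) and TPR1 (-0.15), and under quantile normalisation for IAA16 (-0.13), ARF2 (-0.13), AFB2 (-0.03) and ASK1 (-0.07). Without 1 library, the differences ranged across 0 for IAA1 (-0.10 to 0.57), IAA11 (-0.06 to 0.06), IAA13 (-0.01 to 0.56), IAA28 (-0.36 to 0.02), ARF1 (-0.41 to 0.16), ARF9 (-0.22 to 0.05), AFB1 (-0.08 to 0.26), TAR2 (-0.32 to 0.25), TPL (-0.18 to 0.11) and TPR1 (-0.07 to 0.16). The cause was not tested.

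Libraries of the same replicate number did not deviate together (r = -0.0336 for the deviations from the genotype means), so the numbers were not taken as pairs. With a replicate block 1985 genes were called, with 3 Aux/IAA, 4 ARF and 6 other auxin calls. The depth limits the 9 genes below 1 FPKM.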

Other observations

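Some Aux/IAA genes are neighbours on a chromosome in TAIR10.1. IAA3 and IAA17 lie 6389 bases apart on chromosome 1, and both had positive differences (1.17 and 0.71 on the log2 scale). IAA1 and IAA14 lie 10733 bases apart on chromosome 4, with differences of 0.23 and 0.78. IAA2 and IAA7 lie 12511 bases apart on chromosome 3, with differences of 0.57 and 0.68. All 6 differences were positive, as were 15 of the 19 tested Aux/IAA genes and 9335 of all 17642 tested genes. That of IAA1 turned negative without atino80-5 replicate 2. IAA3 was the single call among the 6, where 5.41% of all genes were called. A link between position and difference was not tested.

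ABCB4, an auxin transporter of the root, and TPR4, a relative of the co-repressor TPL, were looked up after their values were seen. ABCB4 stood at 4.78 and 5.74 FPKM in atino80-5 and at 8.20 and 8.93 FPKM in wild type (limma adjusted p 0.0776). TPR4 stood at 4.96 and 5.93 FPKM in atino80-5 and at 8.95 and 9.94 FPKM in wild type (limma adjusted p 0.0591). In the authors' deposited table both were lower, with log2 fold changes of -0.70 for ABCB4 (adjusted p 0.0344) and -0.79 for TPR4 (adjusted p 0.00759). Both overlap a neighbouring annotated gene.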
